A study of Mus with 8 samples.

Results

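C/EBPβ occupied 507 sites in all 4 conditions of this study, out of 28658 regions that carried a peak in any of them. The members were found by merging the deposited peak lists of the 4 conditions wherever peaks overlapped by at least 1 bp and by keeping the merged regions that held a peak of each list. They made up 1.77% of all regions (95% Wilson interval 1.62 to 1.93). The members were thus selected on the peak calls, that is, on a −log10 p of at least 5 in every list, so the levels given below describe the sites and were not tested. There was 1 ChIP library and 1 input library per condition and no replicate, so the spread between cultures is unknown. Intervals of medians and shares below describe the spread over sites, which are not replicates, and intervals of fragment ratios cover counting error alone.

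The cells were 3T3-L1, a mouse preadipocyte line that hormones turn into fat cells. C cells were transduced with a lentivirus for a scrambled hairpin and P cells with 1 for a hairpin against Prep1, and both had passed selection in puromycin. Day −2 samples were uninduced, and the 4 h samples had spent that time in medium with 10% FBS, 1 μg/ml insulin, the phosphodiesterase inhibitor IBMX at 0.5 mM and dexamethasone, a glucocorticoid, at 1 μM. Day −2 and 4 h also differed in time in culture. Per the paper's methods they differed in serum too, with BCS for growth and FBS for induction. The part of the hormones cannot be told apart from these. No sample of untreated parental cells was analysed here, and ChIP-seq does not show marker expression, so the cell type was taken from the labels.

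C/EBPβ is a basic leucine zipper factor that binds DNA as a dimer and is among the earliest regulators of fat cell formation. In growing preadipocytes it is present at a low level, and glucocorticoid and cAMP signals raise it within hours of induction. It then gathers with other factors at enhancers that later serve Pparγ and C/EBPα, the regulators that establish the adipocyte state. Prep1 is a DNA-binding homeodomain protein of the TALE class. Sites that hold C/EBPβ before hormones are added, in C cells as well as in P cells, therefore give a fixed set on which the 4 libraries can be set side by side.

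The libraries differed little in depth and more in the fragment length that the peak caller used, as worked out from its output. The depth recovered from the background in the lists was between 7.82 and 7.85 M reads. The authors had down-sampled the mapped reads, so a like depth was set by the processing. This length was 215 bp in C cells at day −2 and 159 to 163 bp in the P libraries, with 164 bp in C cells at 4 h. The day −2 lists held 838 (C) and 1653 (P) peaks and the 4 h lists 13525 and 26713. The sites bound in all conditions took up 60.6% of the C list and 30.7% of the P list at day −2, against 3.79% and 1.90% of the 4 h lists.

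Each site was nearly always a single peak. Of the 507 sites, 501 held exactly 1 peak of each list and 6 held more than 1 peak of some list. The merged regions had a median width of 350 bp, from 246 to 1494 bp. The strongest peaks of the 4 lists shared at least 1 bp in 505 sites. In the other 2 sites they shared none and were joined only by a chain of overlaps. On chromosome 5 from 32164854 to 32165809 the summits of C cells at day −2 and at 4 h lay 673 bp apart, and on chromosome 2 from 148347543 to 148348402 the C and P summits of day −2 lay 552 bp apart. No further place fell within 100 bp of meeting the rule. The nearest ones, chosen after their values were seen, were pairs of neighbouring regions that held all 4 lists only together. On chromosome 8 a region from 74669422 to 74669810 had the day −2 peak of C cells (fold enrichment 7.37) and its neighbour, 185 bp further on, that of P cells (7.97). On chromosome 9 a region from 14019838 to 14020246 had the P peak of day −2 (18.3) and its neighbour at a distance of 211 bp the C peak (10.4).

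Levels were read as fold enrichment, the ratio of ChIP fragments to the local input background at the peak summit as the authors' peak caller gave it, with 1 added to both terms. The added 1 lowers the ratio where the background is low. The genome background named below is the lowest background in a list. It was 0.623 (C) and 0.474 (P) fragments at day −2 and 0.476 (C) and 0.461 (P) at 4 h. A background of up to about 10 times this level thus amounts to only a few input fragments. Its counting error is not covered by the intervals of fragment ratios and was not assessed. The median fold enrichment of the sites at day −2 was 8.75 (8.43 to 9.02) for C and 12.2 (11.6 to 13.0) for P cells. At 4 h it was 19.96 (19.04 to 21.2) for C and 31.5 (29.5 to 33.0) for P cells. The order of the medians was thus C before P within each time point and day −2 before 4 h within each cell type, and the intervals of neighbours in that order did not overlap. The 10th to 90th percentiles of the sites ran from 5.76 to 14.5, 7.71 to 22.3, 10.6 to 36.9 and 15.8 to 52.4 in the same order, so these ranges overlapped between neighbours in that order but not between C cells at day −2 and P cells at 4 h. The medians of the whole lists were 8.01, 9.96, 9.07 and 10.9. The sites thus lay a little above the medians of the day −2 lists, of which they form a large share, and well above those of the 4 h lists.

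**Figure D1:**
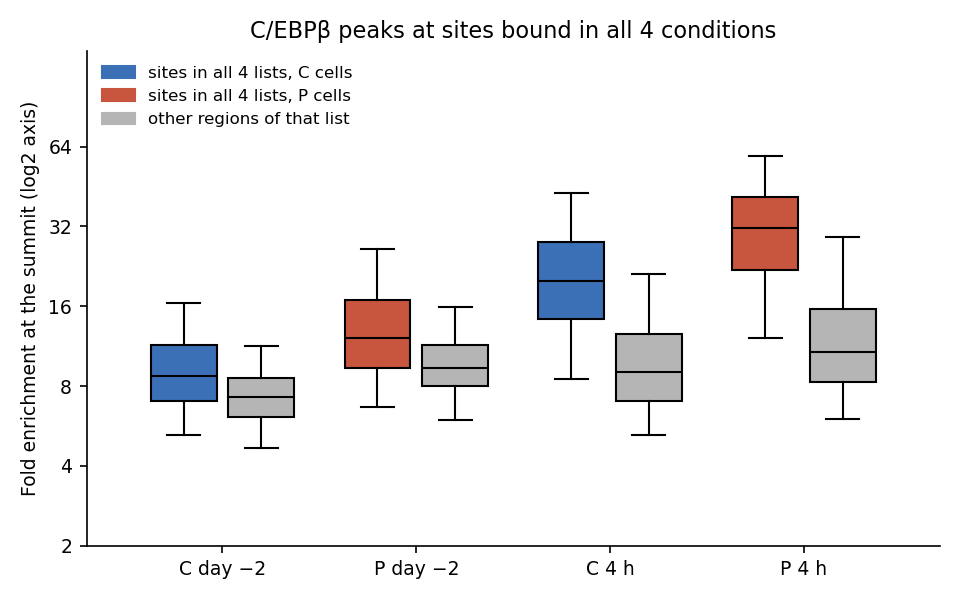
Fold enrichment at the summit on a log2 axis for C and P cells at day −2 and 4 h, with the 507 sites bound in all 4 conditions in colour and the other regions of the same list in grey. Boxes show the quartiles with the median as a line, and whiskers run from the 5th to the 95th percentile. The medians of the sites rise from 8.75 in C cells at day −2 to 31.5 in P cells at 4 h, while the grey boxes stay at a similar height.

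The number of ChIP fragments at the summit was recovered from fold enrichment and p for every peak. Its day −2 median was 21 for C and 25 for P cells, and its 4 h median 41 and 65. The order of the medians was also the commonest order at single sites. By fold enrichment, 248 sites (48.9%) followed the order C day −2, P day −2, C 4 h, P 4 h, and 77 had the same order with C above P at day −2. The highest value was that of P cells at 4 h in 403 sites and that of C cells at 4 h in 86. The lowest was that of C cells at day −2 in 378 sites and that of P cells at day −2 in 103. The day −2 library was the highest at 14 sites in P cells and at 4 in C cells. By fragments the highest value was that of P cells at 4 h in 469 sites and that of C cells at 4 h in 27. The lowest by fragments was that of C cells at day −2 in 353 sites and that of P cells at day −2 in 140.

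The 4 h lists were examined next for where these early sites stand after induction. Their median percentile rank by −log10 p was 93.2 (91.6 to 94.4) in the C list and 95.8 (95.1 to 96.5) in the P list. In the weakest decile of the C list, 2 of 1353 peaks (0.148%) belonged to the sites, and in the strongest decile 299 of 1353 did (22.1%, 19.97 to 24.4). In the P list the strongest decile held 381 of the 507 sites (14.2% of its peaks), and the weakest decile held 0 of 2800 peaks (Wilson upper limit 0.137%). Among the 100 strongest peaks, 55 in the C list and 44 in the P list at 4 h were such sites. At day −2 the share among the 100 strongest was 93 in C cells and 84 in P cells. Strong peaks of the 4 h lists were thus more often such sites than weak ones were, but most peaks of the strongest decile were not bound in all conditions. The rule requires a peak in both 4 h lists. The 15022 regions called in P cells at 4 h alone and the 1881 in C cells at 4 h alone could not be members. The shares by decile can therefore follow in part from the rule, and how much was not tested.

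**Figure D2:**
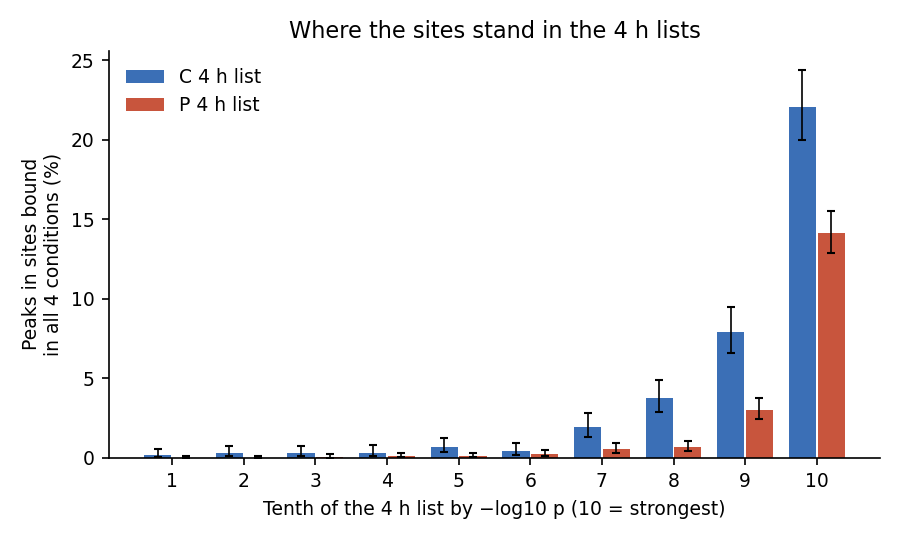
Share of peaks, in percent, that lie in sites bound in all 4 conditions, for each decile of the C list and of the P list at 4 h ordered by −log10 p. Error bars are 95% Wilson intervals. Peaks called at 4 h in 1 cell type alone cannot be such sites. The share climbs to 22.1% in the strongest decile of the C list and 14.2% in that of the P list, and stays under 1% in the weaker deciles 1 to 6.

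The strongest sites, by the lowest of their 4 −log10 p values, were on chromosomes 2, 17 and 5. At chromosome 2 from 50542834 to 50543204, fold enrichment was 28.4 in C and 38.0 in P cells at day −2 and 28.4 and 61.0 at 4 h. Only P cells at 4 h stood apart there, with 128 fragments against 62 to 84 in the other libraries. At chromosome 2 from 61133543 to 61134106 the values were 29.0, 29.9, 55.5 and 55.2 in the same order, so that fold enrichment was alike in the cell types at each time. At chromosome 17 from 71649707 to 71650086 they were 28.2, 28.4, 46.6 and 54.4. At chromosome 5 from 20560208 to 20560563 they were 21.7, 26.4, 32.7 and 51.4. In these 4 sites C and P cells at day −2 had nearly the same number of fragments, with P/C ratios between 0.816 and 1.02 whose exact Clopper-Pearson intervals all included 1. Their ranking used the lowest −log10 p, which lay in a day −2 list at most sites. That choice favours sites strong in both day −2 libraries, so ratios near 1 there partly follow from it. Fragments were more numerous at 4 h in P cells by a ratio of 1.70 to 2.06, with intervals above 1. In C cells the ratios were 1.11, 1.46, 1.67 and 1.08, and the intervals of the first and last site included 1. These C counts rest on a caller's fragment length of 215 bp at day −2 and 164 bp at 4 h, against 163 and 159 bp in P cells. The part of this length in the ratios was not tested.

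The weakest sites were just over the threshold of the peak caller. At chromosome 11 from 48669775 to 48670274 the −log10 p was 6.14 in C and 5.86 in P cells at day −2 and 13.5 and 16.2 at 4 h. Fold enrichment there was 4.33, 4.32, 8.11 and 9.49, from 10, 12, 14 and 18 fragments, and the intervals of the P/C and 4 h to day −2 fragment ratios all included 1. At chromosome 3 from 51561001 to 51561309 the −log10 p was 5.88 in C cells at day −2, while C cells at 4 h had 45.2. The limiting list, the one with the lowest −log10 p, was that of C cells at day −2 in 368 sites and that of P cells at day −2 in 126. It was the C list at 4 h in 12 sites and the P list at 4 h in 1.

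P cells were then compared with C cells at this fixed set of sites, to ask how C/EBPβ binding stood when Prep1 was lowered. With 1 library each, a difference between the cell types cannot be told apart from one between libraries. At day −2 the median log2 P/C fold enrichment was 0.48 (0.42 to 0.54), and P cells were higher in 396 of 507 sites (78.1%, against 77.6% of the 519 regions with a peak in both day −2 lists). P cells were at least 2-fold higher in 102 sites (20.1%, against 20.2% of the 519 regions) and at least 2-fold lower in 1 site (0.197%, against 0.193%). The sites make up nearly all of these regions, so these shares are alike by construction. At 4 h the median was 0.59 (0.52 to 0.65), P cells were higher in 414 sites (81.7%, against 82.1% of 11532 regions in both 4 h lists), and they were at least 2-fold higher in 115 (22.7%, against 27.7%) and at least 2-fold lower in 3 (0.592%, against 0.937%). A higher P fold enrichment at 4 h was therefore about as frequent at these early sites as over all shared regions. When every list was divided by its own median, the median log2 P/C ratio of the sites was 0.17 at day −2 and 0.32 at 4 h.

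The number of fragments gave a different picture at day −2. Its median log2 P/C ratio was 0.25 (0.20 to 0.32) at day −2 and 0.63 (0.59 to 0.67) at 4 h. P cells had more fragments in 340 sites at day −2 (67.1%, the same share as over the 519 regions) and in 477 sites at 4 h (94.1%, against 88.4% of 11532 regions). At day −2 they had at least 2-fold more in 51 sites (10.1%, against 9.83%) and at least 2-fold fewer in 5 (0.986%, against 0.963%). At 4 h they had at least 2-fold more in 80 sites (15.8%, against 29%) and at least 2-fold fewer in 0 (against 0.199%). The sites held more fragments than the other regions, and the SD of the log2 ratio was 0.38 at the sites and 0.56 in the other shared regions, so the shares are not at equal counting error. At day −2 the exact interval of the P/C fragment ratio lay above 1 in 70 sites (13.8%, against 13.5%) and below 1 in 7 (1.38%, against 1.35%). At 4 h it lay above 1 in 294 (58.0%, against 40.2%) and below 1 in 0 (against 0.225%), with more fragments and so narrower intervals at the sites. The caller's fragment length was 215 bp in the C library at day −2 and 163 bp in the P library, and the part of this length in the difference between the measures was not tested. The change of the P/C ratio from day −2 to 4 h likewise depended on the measure. Its median was 0.12 (0.03 to 0.21) for fold enrichment and 0.36 (0.29 to 0.42) for fragments on the log2 scale. This length also set the shortest peak that could be called. With P peaks of day −2 kept only where at least as wide as the shortest C peak, an alternative chosen after seeing the data, 330 sites remained. The medians were then 0.66 for P/C at day −2 and -0.032 (-0.134 to 0.070) for the change, in a selection that itself acts on the P signal of day −2.

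**Figure D3:**
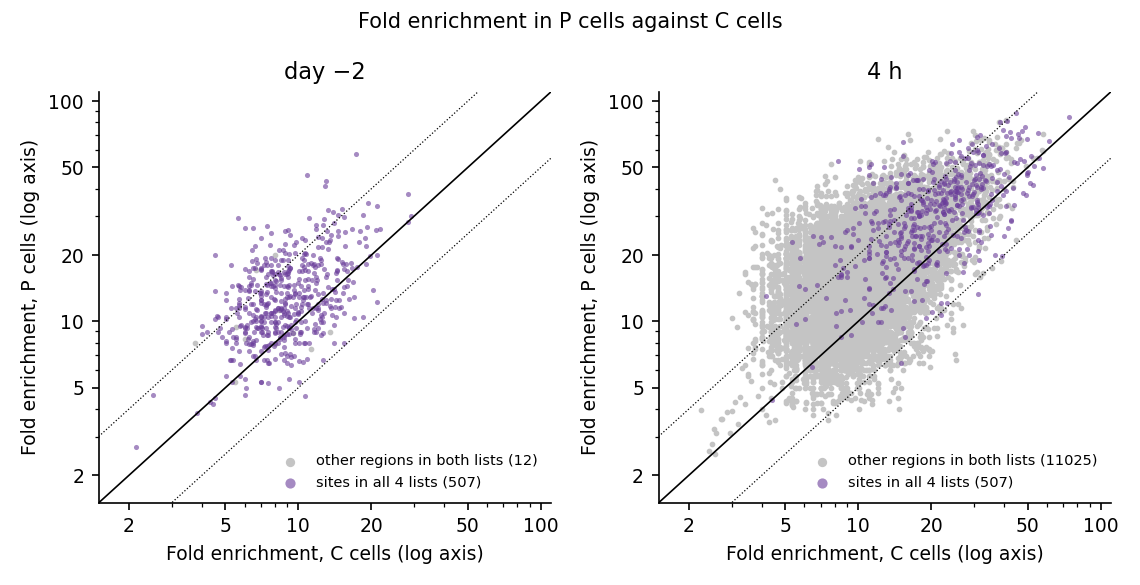
Fold enrichment in P cells (vertical log axis) against C cells (horizontal log axis) at day −2 and at 4 h, 1 point per region, with the 507 sites bound in all 4 conditions in purple and other regions present in both lists in grey. The solid line marks equal values and the dotted lines a 2-fold difference. Most purple points lie above the solid line, 396 at day −2 and 414 at 4 h.

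P cells exceeded C cells at both times in 326 sites (64.3%) by fold enrichment, in 70 sites at day −2 alone and in 88 at 4 h alone. They were lower at both times in 23. In 24 sites they were at least 2-fold higher at both times by fold enrichment, and in 13 by fragments. By fold enrichment P cells were higher in 78.1% of sites at day −2 and 81.7% at 4 h. They were at least 2-fold higher in 20.1% and 22.7%. Overlaps between the times thus arise without any link between them, and whether the counts exceed that was not tested. Across the sites the log2 P/C ratios of the 2 time points, which come from separate libraries, had a Spearman correlation of 0.084 for fold enrichment and of 0.25 for fragments. The SD of the log2 fragment ratio among sites was 0.55 at day −2, where counting error alone gives 0.44, and 0.38 at 4 h, where it gives 0.30. Sites differed among themselves by somewhat more than counting error, which also limits these correlations.

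The sites with the largest P/C fold enrichment at day −2 were as follows. On chromosome 11 from 76106003 to 76106289 fold enrichment was 5.62 in C and 29.5 in P cells at day −2 and 6.86 and 22.5 at 4 h. The input background was 6.401 and 10.4 times the genome background in the C libraries and 1.10 and 4.49 times in the P libraries, and the fragments, 27 and 44 at day −2, had a ratio of 1.63 (0.987 to 2.74). P cells were thus high at both times by fold, while the fragments differed beyond counting error at 4 h, by a ratio of 1.70 (1.13 to 2.58), but not at day −2. On chromosome 15 from 62159807 to 62160469 the values were 4.51, 19.9, 7.69 and 24.2, and P cells had more fragments at day −2 by a ratio of 2.29 (1.27 to 4.32) and at 4 h by 2.45 (1.47 to 4.23). On chromosome 1 from 169177134 to 169177478 they were 6.01, 26.5, 33.6 and 62.3, and the fragment ratio was 2.53 (1.41 to 4.73) at day −2 and 1.68 (1.23 to 2.32) at 4 h. Both of these sites were higher in P cells by both measures. They were chosen by P/C fold enrichment at day −2, and the fragments were recovered from the same peaks. At day −2 the fragment ratios are therefore no independent check.

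The lowest P/C fold enrichment at day −2 was on chromosome 1 from 170292570 to 170293366, with 10.7 in C and 4.58 in P cells at day −2 and 30.3 and 51.4 at 4 h. Next were chromosome 1 from 151946941 to 151947252, with 15.5, 7.97, 35.0 and 27.1, and chromosome 9 from 44152196 to 44152484, with 12.7, 6.64, 21.6 and 41.4. Each had an input background at day −2 that was higher in P cells, at 8.44, 6.33 and 4.22 times the genome background against 3.20, 2.75 and 2.06 times in C cells. The intervals of their P/C fragment ratios, from 0.679 to 0.756, included 1.

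At 4 h the highest P/C fold enrichment was on chromosome 7 from 148142179 to 148142573, with 7.68 in C and 14.5 in P cells at day −2 and 8.28 and 53.4 at 4 h. There the 106 fragments of P cells at 4 h exceeded the 32 of C cells by a ratio of 3.31 (2.21 to 5.09), and the other libraries had 22 and 24. Among the 4 libraries only P cells at 4 h stood high there, and the C background at 4 h was 6.27 times the genome background against 2.17 times in P cells. Both backgrounds amount to few input fragments, and their difference was not set against counting error. On chromosome 8 from 98376216 to 98376565 the values were 7.201, 7.64, 11.3 and 52.0, with 109 fragments in P and 44 in C cells at 4 h. On chromosome 15 from 3825471 to 3825786 they were 12.6, 27.4, 10.0 and 49.1. The 74 fragments of P cells there at 4 h exceeded the 39 of C cells by a ratio of 1.90 (1.27 to 2.87), with a background of 1.14 times the genome background in P and 6.27 times in C cells.

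The lowest P/C fold enrichment at 4 h was on chromosome 10 from 37224062 to 37224726, with 8.01 in C and 15.4 in P cells at day −2 and 31.2 and 13.3 at 4 h. Its 4 h fragments went the other way, with 79 in P and 45 in C cells, and the P background at 4 h was 10.9 times the genome background against 1.00 in C cells. On chromosome 18 from 4352884 to 4353188 fold enrichment was 9.15, 8.78, 21.9 and 10.7, and fragments at 4 h were again more numerous in P cells, 42 against 32. On chromosome 19 from 21738299 to 21738877 it was 7.29, 7.77, 15.0 and 6.49, with 25 fragments in P and 29 in C cells at 4 h.

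The 4 h and day −2 libraries were compared within each cell type at the same sites. Their ratios hold differences in culture time and serum besides the hormones. The median log2 ratio of 4 h to day −2 fold enrichment was 1.15 (1.07 to 1.21) for C and 1.25 (1.16 to 1.36) for P cells. Fold enrichment was higher at 4 h in 481 sites in C cells (94.9%, against 93.8% of the 790 regions with a C peak at both times) and in 479 in P cells (94.5%, against 93.7% of 1628). It was at least 2-fold higher in 301 sites in C cells (59.4%, against 54.4%) and in 316 in P cells (62.3%, against 63.3%). It was at least 2-fold lower in no site of either cell type (0 of 507, against 0% in C and 0.123% in P cells). For fragments the medians were 0.95 (0.89 to 0.98) and 1.32 (1.25 to 1.38). Fragments were at least 2-fold more numerous at 4 h in 225 sites in C cells (44.4%, against 43.9%) and in 362 in P cells (71.4%, against 71.6%). The interval of their ratio lay above 1 in 317 sites in C cells (62.5%, against 55.9%) and in 432 in P cells (85.2%, against 80.5%). The regions compared include the sites, which make up 507 of the 790 in C cells and of the 1628 in P cells. In the other 283 regions of C cells the median log2 ratio of fold enrichment was 0.92 (0.81 to 1.04) and 45.6% (39.9 to 51.4) were at least 2-fold higher. In the other 1121 of P cells these were 1.30 (1.24 to 1.37) and 63.8% (60.9 to 66.5). Fold enrichment was thus higher at 4 h at nearly every site, as at nearly all such regions. Fragments passed counting error less often in C than in P cells at the sites as over all such regions. In C cells the caller's fragment length went from 215 bp at day −2 to 164 bp at 4 h, against 163 and 159 bp in P cells. Its part in this difference between the cell types was not tested.

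The 4 h value was above that of day −2 in both cell types at 458 sites (90.3%) and below it in both at 5. It was above in C cells alone at 23 and in P cells alone at 21. It was at least 2-fold higher in both at 216 sites (42.6%). The log2 ratios of 4 h to day −2 in C and in P cells, from separate libraries, had a Spearman correlation of 0.32 for fold enrichment and 0.51 for fragments across the 507 sites. Levels themselves were correlated most closely between the cell types at 4 h, with 0.84 for fragments, against 0.52 at day −2, where the counts were lower.

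The largest ratio of fold enrichment was at chromosome 2 from 72204559 to 72204947 in both cell types, where fold enrichment was 5.76 and 5.65 (C and P cells) at day −2 and 46.3 and 67.9 at 4 h. The 22 fragments of C cells became 80, a ratio of 3.64 (2.25 to 6.12), and the 16 of P cells became 133, a ratio of 8.31 (4.93 to 15.0). At 4 h it ranked above 99% of each list, while at day −2 its percentile rank was 35.7 in the C and 4.72 in the P list. On chromosome 3 from 58273657 to 58273993 the values were 4.51, 4.48, 34.6 and 31.0, and the ratios of both cell types were alike by fold. By fragments C cells went from 17 to 54 and P cells from 17 to 92, with a background at 4 h of 1.23 times the genome background in C and 4.34 times in P cells. In P cells the next largest ratio of fold enrichment was at the site on chromosome 1 from 170292570 described above, from 4.58 to 51.4. There the fragments of P cells went from 22 to 102, a ratio of 4.64 (2.90 to 7.72). The P background was 8.44 times the genome background at day −2 and 2.17 times at 4 h.

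The sites with the lowest 4 h to day −2 ratio in C cells were chromosome 6 from 84303516 to 84303830, where fold enrichment was 12.4 and 18.9 (C and P cells) at day −2 and 6.53 and 24.3 at 4 h, and chromosome 14 from 24452479 to 24452796, with 10.48, 6.55, 6.02 and 10.3. In P cells they were chromosome 2 from 7167659 to 7168151, with 6.68, 19.2, 5.51 and 9.74, and chromosome 5 from 12436762 to 12437040, with 8.51, 15.7, 9.36 and 8.65. Fragments at these sites were not fewer at 4 h in the cell type that named them. Their 4 h to day −2 ratios there were 1.46, 1.06, 1.12 and 1.00, with intervals that included 1, and the 4 h background was 10.4, 4.18, 6.51 and 4.34 times the genome background.

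The sites were set against the regions most like them, those bound in both cell types at 4 h that lacked 1 or both day −2 peaks. Fold enrichment at 4 h was lower in each of these classes. Its median was 14.2 in C and 24.96 in P cells for the 977 regions that lacked only the C peak at day −2. It was 14.7 and 18.6 for the 261 that lacked only the P peak, and 9.09 and 14.5 for the 9787 with neither. The intervals of these medians did not overlap those of the 507 sites in the same cell type.

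The P/C ratio at 4 h followed the day −2 lists. Its median log2 value was 0.59 (0.52 to 0.65) at the sites in all 4 lists, 0.80 (0.75 to 0.85) where only the C peak of day −2 was missing, 0.31 (0.19 to 0.40) where only the P peak was missing and 0.60 (0.58 to 0.62) with neither. Regions called at day −2 in P cells alone thus had the highest ratio after induction, and regions called in C cells alone the lowest. By fragments the medians were 0.63, 0.84, 0.42 and 0.69 in the same order, so the sites lay under the regions with neither peak by this measure. The classes also differed in level at 4 h, and its part in the ratio was not tested.

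**Figure D4:**
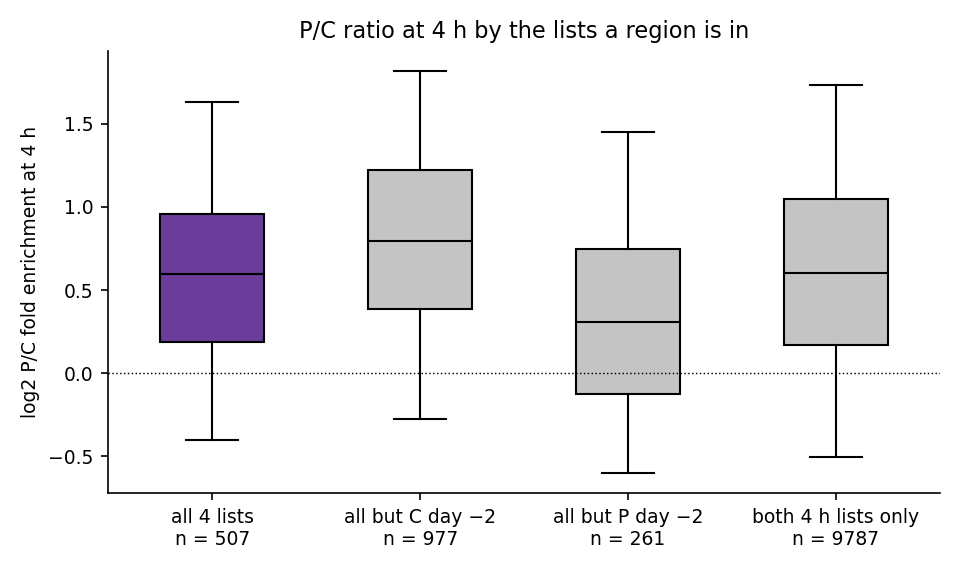
log2 ratio of P to C fold enrichment at 4 h for regions in all 4 lists (purple) and for regions that lack the C peak, the P peak or both peaks at day −2 (grey). Boxes show the quartiles with the median as a line, whiskers run from the 5th to the 95th percentile, and the dotted line marks equal values. The medians are 0.59, 0.80, 0.31 and 0.60 from left to right.

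Position was not used by the rule beyond the overlap itself. The summits of a site lay close together. C and P summits differed by a median of 13 bp (12 to 15) at day −2 and 8 bp (7 to 9) at 4 h, and the 4 summits of a site spanned a median of 23 bp (22 to 25). The span was at most 25 bp in 281 sites (55.4%) and at most 100 bp in 489 (96.4%). At 4 h the C and P summits lay within 25 bp of each other in 89.0% of the sites, in 81.5% of the regions without the C peak of day −2, in 80.8% of those without the P peak and in 65.4% of those with neither. The fragments at 4 h had medians of 41 and 65 at the sites and of 17 and 29 in the last class. The part of peak strength in the distance was not tested.

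**Figure D5:**
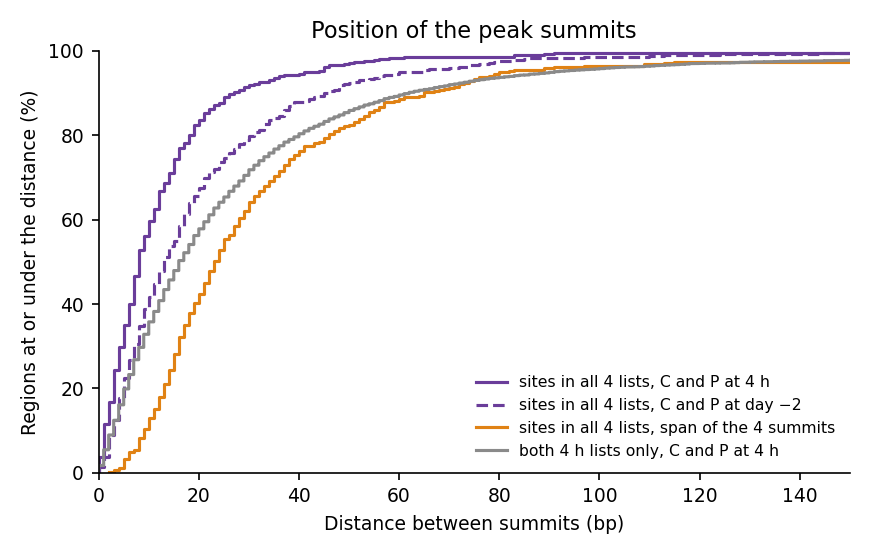
Cumulative share of regions, in percent, by the distance in bp between peak summits. Purple lines show C against P at 4 h (solid) and at day −2 (dashed) for the 507 sites, the orange line the span of all 4 summits of a site, and the grey line C against P at 4 h for the 9787 regions in both 4 h lists only. The solid purple line reaches 89.0% at 25 bp and the grey line 65.4%.

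Day −2 peaks had a median width of 273 bp (C) and 234 bp (P) and 4 h peaks of 299 and 325 bp, against 259 and 208 bp and 233 and 242 bp over the whole lists. The 4 h peak was the wider one in 340 sites in C cells (67.1%, against 67% of the 790 regions with both peaks) and in 488 in P cells (96.3%, against 96.1% of 1628). The shares of the sites were close to those of all such regions, which include them. The caller's fragment length, which bears on width, was 215 bp at day −2 and 164 bp at 4 h in C cells, and its part was not tested. The widest merged region, 1494 bp, was on chromosome 19.

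The sites were spread over chromosomes 1 to 19 and X. They made up between 0.807% of regions on chromosome 10 (14 of 1735) and 2.60% on chromosome 5 (37 of 1421), and the interval included the 1.77% of the whole set on every chromosome but 5, 7, 10 and 12. Chromosome 2 held the largest number, 55. Neighbouring sites on a chromosome were a median of 2567296 bp apart, and 13 of 487 such gaps were at most 20 kb. A median of 3 other regions lay within 50 kb of a site, the same number as for regions in both 4 h lists only, and 12.2% of the sites had none (9.66 to 15.4, against 13.7%, 13.0 to 14.4). These intervals overlapped.

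The closest neighbours, chosen after their positions were seen, were on chromosome 17, where a site from 71649245 to 71649553 ended 153 bp before the strong one from 71649707 described above. Its fold enrichment was 4.68 in C and 10.46 in P cells at day −2 and 31.4 and 18.97 at 4 h, so it was weaker than its neighbour in all 4 libraries. The strong site on chromosome 2 from 50542834 likewise had another one 2534 bp further on, from 50545739 to 50546628, with 14.0, 28.1, 14.4 and 40.4. At that pair C cells had nearly the same level at both times, and P cells at 4 h had the highest.

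At 4 sites the input itself was high, at 10 times the genome background or more in every library. On chromosome 10 from 116985583 to 116985896 the background was 86.4 and 84.4 times the genome level in C and P cells at day −2 and 100.7 and 110.7 times at 4 h, and fold enrichment was 2.13, 2.70, 4.41 and 4.40. This was the lowest fold enrichment of the sites in C and P cells at day −2, although 116 and 110 fragments lay at the summit. The site on chromosome 10 from 117183423 to 117183695 had 2.51, 4.64, 6.47 and 6.22. On chromosome 2 the sites from 77789493 to 77789859 and from 77813666 to 77814021 had 4.43, 4.23, 12.4 and 11.5, and 3.82, 3.82, 8.49 and 11.2. At each of these sites fold enrichment was higher at 4 h than at day −2 in both cell types. In 173 sites the background was under 3 times the genome level in all 4 libraries, and there the median log2 P/C ratio was 0.43 at day −2 and 0.64 at 4 h.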

How the data were processed

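Immunoprecipitated and input chromatin of each condition was sequenced, 1 library each. Per the labels, the authors aligned reads to mm9 with Bowtie 0.12.8, kept unique alignments, removed duplicates and down-sampled with SAMtools (1.3.1 in the submitters' processing notes), and called peaks with MACS2 2.0.10.20131028 against input at a −log10 p of at least 5. The deposited lists give for each peak a score (−log10 p rescaled), the fold enrichment (a ratio of ChIP to local input background, with 1 added to both), −log10 p, −log10 q and the summit position, all as the authors' caller wrote them. Peak names inside the lists carry 0 h where the labels give day −2 and 5 h where they give 4 h. The labels were followed, and which times are right cannot be settled here.

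Peaks were merged at an overlap of 1 bp, and the peak with the highest −log10 p stood for each list in a region. From these values the number of whole ChIP fragments and the input background were worked out (100% of peaks, within 0.001 of the deposited −log10 p), with a fitted ChIP scale of 0.996 and 0.999 in the P lists at day −2 and 4 h. Depth was computed for a genome of 2.7e+09 bp. Duplicate removal limits the fragments at a summit to 430, 326, 328 and 318 in C and P cells at day −2 and 4 h, and 1 site exceeded 0.8 of its limit, in C cells at 4 h. Medians carry exact order-statistic 95% intervals and shares Wilson intervals. No test was made, since regions of a library are not replicates. The recovery was tested on simulated data. Python 3.11.15, numpy 2.4.6, pandas 2.3.3, scipy 1.17.1, statsmodels 0.14.6 and matplotlib 3.10.9 were used.

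The members, measures and rules were chosen with earlier results of these data known. Sites named were the 4 strongest and 2 weakest by their lowest −log10 p, the 3 highest and 3 lowest by P/C fold enrichment at each time, and the 2 highest and 2 lowest by 4 h over day −2 fold enrichment in each cell type. Coordinates are mm9, counted from 1. Sequence, motifs and nearby genes were not analysed here, because the annotation used is of another build.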

Additional observations from a re-analysis of the deposited data

Results flagged for a closer look

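By fold enrichment, P cells were above C cells at day −2 and below them at 4 h in 70 sites, and below them at day −2 and above them at 4 h in 88 sites. These were singled out because the sign of the P/C ratio differed between the time points, and the difference was not tested at any single site. By fragments at the summit the corresponding numbers were 12 and 131.

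In 4 sites, on chromosomes 10 and 2, the input libraries, which entered no comparison of their own, held at least 10 times the genome background in all 4 conditions. The first pair lay on chromosome 10 from 116985583 to 117183695 and the second on chromosome 2 from 77789493 to 77814021. A further site on chromosome 10 from 117540327 to 117540973, chosen after its values were seen, had 12 fragments in C and 150 in P cells at day −2 and 79 and 249 at 4 h, with an input background of 1.20, 9.63, 4.18 and 15.2 times the genome level. Its fold enrichment was 7.43, 27.0, 26.8 and 31.2.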

How the results depend on the processing

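Under up to 13 alternative settings, 73 of 91 values of the 9 medians stayed within their interval, 17 moved outside it and 1 changed sign, and the cause of these shifts was not tested. With a q-value under 0.01, with chromosomes 1 to 19 and X, or with the peak of highest fold enrichment, the median ratios were unchanged. The values that stayed include those of these settings, which were no check of the ratios. The number of sites was 453 with a −log10 p of at least 10, 485 with a fold enrichment of at least 5, 420 with a reciprocal overlap of at least 50% and 492 with summits within 100 bp. With −log10 p as the measure the median log2 ratio was 0.77 for P/C at 4 h, 1.46 for 4 h over day −2 in C and 1.76 in P cells, and the change of P/C was 0.29. With fragments it was 0.25 for P/C at day −2, 0.95 for 4 h over day −2 in C cells and 0.36 for the change of P/C. In the 173 sites with an input background under 3 times the genome level, 4 h over day −2 in C cells was 1.06 and the change of P/C 0.23. With each list divided by its own median, P/C was 0.17 at day −2 and 0.32 at 4 h, and 4 h over day −2 was 0.97 in C and 1.11 in P cells. With P peaks of day −2 at least as wide as the shortest C peak, chosen after seeing the data, there were 330 sites. P/C at day −2 was then 0.66, 4 h over day −2 in P cells 1.09, the change of P/C -0.032 (-0.134 to 0.070), and the percentile rank at 4 h 95.2 in the C and 97.0 in the P list. Of 40 values of named sites, 5 changed sign, each with fragments. These were P/C at 4 h on chromosome 10 from 37224062 (0.81) and on chromosome 18 from 4352884 (0.39), and 4 h over day −2 in C cells on chromosome 6 from 84303516 (0.55) and on chromosome 14 from 24452479 (0.087) and in P cells on chromosome 2 from 7167659 (0.16). No paired analysis was possible because each group has 1 library. The planned motif and gene-distance results were not run. Day −2 counts, with medians of 21 and 25 fragments, limit the ratio at any single site.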
